A study of Homo sapiens with 24 samples.

Results

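The second day of TGFβ stimulation was followed in 6 of the 24 RNA-Seq libraries of the series, 3 from SK-MES1 cells stimulated for 48 h and 3 from cells stimulated for 24 h. The libraries were taken by their treatment and time labels alone, without using any measured value. SK-MES1 is an established human cell line from a squamous cell carcinoma of the lung (LUSC). All cells were growth factor-depleted for 3 h, and both groups then received the same dose of 2 ng/ml TGFβ1. Neither of them is therefore an untreated group, and the dose does not differ. The study names growth factor-depleted medium for the stimulation itself. Cells of 48 h were thus longer in TGFβ and longer in that medium, and these durations cannot be told apart in this comparison. The remaining 18 libraries are the same arm at 0 h and 8 h and untreated cells at 0, 8, 24 and 48 h, each in triplicate. The untreated cells of 24 h and 48 h served as the background of the same day without TGFβ. A single line at a single dose was used, and the p-values measure only the spread between these replicate samples.

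TGFβ binds a pair of receptor kinases that phosphorylate SMAD2 and SMAD3, which enter the nucleus with SMAD4 and change transcription. In epithelial and carcinoma cells the pathway is known for slowing the cell cycle, for raising extracellular matrix and protease genes and for epithelial-to-mesenchymal transition (EMT). Its targets respond at different speeds, since some are bound by SMADs directly and others follow through transcription factors that are themselves induced.

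Most members of the cell cycle and interferon groups moved in 1 direction on the second day, and promoters of these groups are shown because each is known for a shared regulatory element. The first 2 sequences belong to DNA replication genes, with letters of an E2F site (TTTCCCGC, TTTGGCGC or TTTCGCGC) in capitals. The next pair belongs to mitosis genes, with letters of the cell cycle homology region (CHR, TTTGAA or TTCGAA) in capitals, and the last to an interferon-stimulated gene, with letters of an interferon response element (GAAA, any 2 bases, GAAA). Both strands were searched. Each sequence is the 200 bases before the RefSeq gene start in GRCh38.p14, read 5′ to 3′ on the strand of the gene. Shown are the members with the largest changes among those whose window held the letters and no annotated UTR, a choice made after their values were seen.
TYMS (chr18:657453-657652, plus strand): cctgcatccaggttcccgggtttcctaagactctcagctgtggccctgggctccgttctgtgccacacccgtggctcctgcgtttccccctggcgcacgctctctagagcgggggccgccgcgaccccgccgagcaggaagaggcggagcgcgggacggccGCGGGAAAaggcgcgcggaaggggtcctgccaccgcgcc
GINS2 (chr16:85688955-85689154, minus strand): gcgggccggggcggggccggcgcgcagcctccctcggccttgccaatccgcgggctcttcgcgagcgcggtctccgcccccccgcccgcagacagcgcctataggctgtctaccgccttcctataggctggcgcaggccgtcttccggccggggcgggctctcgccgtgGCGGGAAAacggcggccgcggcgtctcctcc
MKI67 (chr10:128126424-128126623, minus strand): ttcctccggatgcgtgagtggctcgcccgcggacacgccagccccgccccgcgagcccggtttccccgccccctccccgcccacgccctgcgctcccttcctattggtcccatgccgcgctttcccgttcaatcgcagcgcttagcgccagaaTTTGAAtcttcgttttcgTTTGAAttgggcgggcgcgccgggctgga
CDK1 (chr10:60778131-60778330, plus strand): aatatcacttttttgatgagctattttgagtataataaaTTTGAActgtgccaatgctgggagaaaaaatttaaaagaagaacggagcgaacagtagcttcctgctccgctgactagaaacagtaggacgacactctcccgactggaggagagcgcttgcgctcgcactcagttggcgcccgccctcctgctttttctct
IFI44 (chr1:78649589-78649788, plus strand): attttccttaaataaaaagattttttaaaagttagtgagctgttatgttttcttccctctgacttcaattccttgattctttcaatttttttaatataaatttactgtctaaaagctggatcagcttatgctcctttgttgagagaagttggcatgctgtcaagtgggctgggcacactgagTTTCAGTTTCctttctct

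In windows of 250 bases before to 50 bases after the gene start, the E2F letters were found in 17 of the 27 promoters matched for DNA replication genes (63%), against 2.79% of all 27305 promoters. The CHR letters were found in 20 of 27 promoters of mitosis genes (74.1%), against 16.6% of all. Another element of cell cycle promoters, the letters CCAAT, occurred in 77.8% of the mitosis and 59.3% of the replication promoters and in 35.7% of all. The interferon response letters were found in 14 of 24 promoters of interferon-stimulated genes (58.3%), against 3.65% of all. These shares describe the letters in the windows and not the binding of a factor.

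The 6 libraries held between 46613589 and 65273825 estimated reads. Of the 10 squamous and epithelial markers examined, KRT8, KRT18, KRT17, TP63, EPCAM and CDH1 were expressed, whereas the basal keratins KRT5, KRT6A and KRT14 and the desmosomal cadherin DSG3 had at most 0.0378 TPM in any of the 6 libraries. Among leukocyte markers 8 of 11 had a mean below 1 TPM, and CD3E and MS4A1 were at 0. The others were CD68 (means of 15.3 TPM at 24 h and 7.89 TPM at 48 h), NCAM1 (4.29 and 6.06 TPM) and PTPRC (1.72 and 1.64 TPM). The list summed to 22.1 to 23.2 TPM at 24 h and to 16.1 to 17.3 TPM at 48 h. Among endothelial markers 6 of 8 were below 1 TPM (sums of 3.18 to 4.54 and 4.51 to 6.33 TPM). One 24 h library, replicate 2, stood apart from the others of its group. Its counts differed from theirs with chi-square values of 43.4 and 33.1 per gene, against 6.41 between replicates 1 and 3, and counts are therefore also given without it.

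From 24 h to 48 h of TGFβ, 2158 genes rose and 2346 fell among the 17453 tested, at an adjusted p below 0.01 in limma voom. These 4504 genes are 25.8% of all genes tested (12.4% higher and 13.4% lower). The changes were small in most of them, with a median absolute log2 difference of 0.45. At least 2-fold changes were found for 288 rising genes (1.65%) and 305 falling genes (1.75%), together 593 or 3.4%. Log2 differences are given on the log2 CPM scale after TMM scaling, and levels are given as TPM, which also corrects for transcript length, so that the ratio of TPM can differ from the log2 difference. Without replicate 2 of 24 h the number was 3896, and in a fit of the 6 libraries alone it was 2451, of which 2424 were among the 4504 with the same direction. In bulk RNA, a change in the number of cells of a kind and a change in RNA per cell cannot be told apart.

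The same day changed 4952 genes in untreated cells (28.4%), 2574 upward (14.7%) and 2378 downward (13.6%). Of the 4504 genes, 2613 passed in both arms with the same direction, which is 58% of the TGFβ calls and 52.8% of the untreated calls. A further 112 genes passed in opposite directions, 28 of them higher with TGFβ and lower without and 84 the reverse. The change itself differed between the arms for 1590 genes (9.11%), by a test of the difference of the differences, with 611 more positive with TGFβ (3.5%) and 979 more negative (5.61%), and 950 of these were among the 4504. In this group 264 genes rose more and 462 fell more with TGFβ than without, while 121 rose less and 103 fell less. The deposited tables of the arms carry different codes in their names, whereas 24 h and 48 h of 1 arm share a code, so a constant offset between codes cancels in this test.

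**Figure D1:**
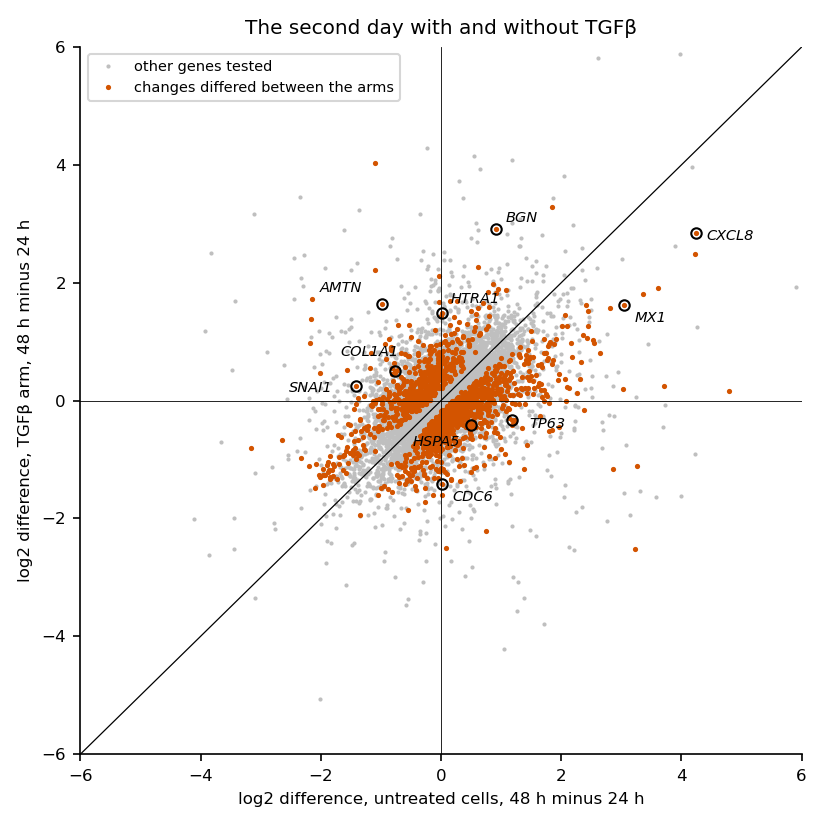
Log2 difference from 24 h to 48 h in untreated cells (horizontal) and in TGFβ-treated cells (vertical), one point per gene, with the 1590 genes whose changes differed between the arms in orange and 3 genes outside the axes. Genes on the diagonal changed alike, BGN, HTRA1 and AMTN lie above it, and CDC6, HSPA5 and TP63 lie below it.

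Among the 12 rising genes named by adjusted p were the protease genes HTRA1, PRSS2 and MMP11 and the matrix genes BGN and AMTN. HTRA1, a secreted serine protease (chromosome 10, 122458551 to 122514907 in GRCh38), was at 161, 175 and 176 TPM at 24 h and at 497, 497 and 493 TPM at 48 h. It rose by 1.48 on the log2 scale (standard error 0.04, limma voom adjusted p = 1.04e-15). In untreated cells HTRA1 did not pass the test, with 84.5 ± 2.39 TPM at 24 h and 89.6 ± 0.691 TPM at 48 h (SD, n = 3), and the arms differed (adjusted p = 3.99e-12). The trypsinogen gene PRSS2 (chromosome 7, 142760398 to 142774564) had 322, 318 and 313 TPM at 24 h and 1052, 1055 and 1043 TPM at 48 h, a log2 difference of 1.67. The untreated level was 47.3 ± 4.8 and 48.5 ± 2.87 TPM. PRSS2 has near-identical trypsinogen neighbours, so the assignment of its reads is uncertain. For both genes every 48 h library lay above every 24 h library, which the naming rule required. The groups did not overlap, in either direction, for 42.2% of all genes tested. Neither HTRA1 nor PRSS2 passed the test in untreated cells.

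BGN, which encodes the matrix proteoglycan biglycan (chromosome X, 153494980 to 153509546), had the largest log2 difference among the 12 rising genes named by adjusted p. Its libraries held 15, 10.5 and 14.6 TPM at 24 h and 113, 112 and 94.3 TPM at 48 h, a log2 difference of 2.92 (standard error 0.09, limma voom adjusted p = 1.06e-14). Untreated cells had at most 1.12 TPM. AMTN, a secreted protein of the enamel matrix, rose from 58.9 ± 4.08 to 193 ± 4.57 TPM (log2 difference 1.63), and fell in untreated cells from 0.995 to 0.498 TPM. The metalloproteinase gene MMP11 rose from 9.69 ± 1.25 to 34.3 ± 1.64 TPM (1.82), and its untreated log2 difference was 0.92. DRAXIN, an axon guidance factor, the synaptic cadherin-like gene CLSTN2, the glycoprotein gene GPNMB and NKD1, an inhibitor of Wnt signaling, rose by 1.59, 1.66, 1.44 and 1.01 on the log2 scale. Of these, NKD1 was the one whose change did not differ from that of untreated cells past the threshold (adjusted p = 0.162).

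Several rising genes also rose without TGFβ. Untreated GPNMB went from 24.1, 28.1 and 25.95 TPM to 42.4, 45.2 and 46.1 TPM, and had 45.1, 43.5 and 40.9 TPM at 48 h with TGFβ. Untreated CLSTN2 went from 2.22, 2.21 and 1.95 TPM to 3.31, 3.5 and 3.35 TPM. For BGN and DRAXIN every untreated 48 h library also lay above every untreated 24 h library, at no more than 1.12 TPM. The aldo-keto reductase gene AKR1B10 went from 33.4 ± 2.47 to 109 ± 9.03 TPM, with log2 differences of 1.65 with and 1.6 without TGFβ. OAS1, an interferon-induced antiviral enzyme, rose by 1.04 with and by 1.91 without TGFβ. KRT17, a keratin of stressed and basal epithelium, went from 18 ± 0.971 to 70.5 ± 1.06 TPM, a log2 difference of 1.91 against 3.61 in untreated cells, where the level reached only 5.41 TPM. AKR1B10 and KRT17 have close paralogs or pseudogenes that can share reads.

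**Figure D2:**
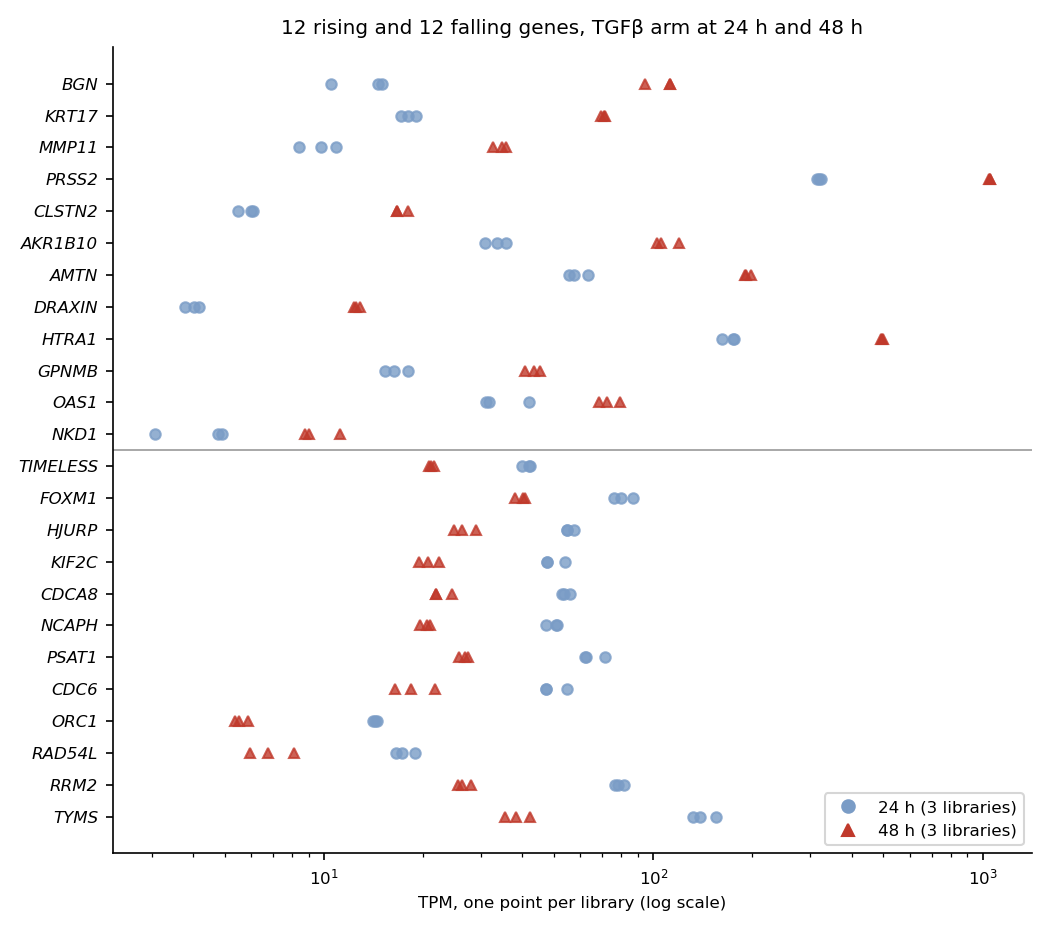
TPM on a log axis of the 12 rising and 12 falling protein-coding genes named by adjusted p, one point per library, with 3 libraries at 24 h (blue circles) and 3 at 48 h (red triangles). The groups do not overlap for any of the 24 genes, which the naming rule required, and they do not overlap for 7357 of all genes tested (42.2%).

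All 12 falling genes but PSAT1 belong to DNA replication, repair or mitosis. TYMS, the thymidylate synthase gene (chromosome 18, 657653 to 673578), was at 139, 154 and 132 TPM at 24 h and at 38.2, 35.5 and 42.4 TPM at 48 h. This is a log2 difference of -1.94 (standard error 0.05, limma voom adjusted p = 6.62e-16), and that of untreated cells was -1.36. RRM2, a subunit of ribonucleotide reductase, went from 78.6 ± 2.48 to 26.5 ± 1.29 TPM (-1.49, untreated -0.88). The replication licensing genes CDC6 and ORC1 fell by 1.42 and 1.42 on the log2 scale, and the repair gene RAD54L and the fork protection gene TIMELESS fell by 1.45 and 1.07. Mitosis was represented by CDCA8, NCAPH, HJURP and KIF2C and by their transcription factor FOXM1, with log2 differences between -1.09 and -1.36. PSAT1, an enzyme of serine synthesis, fell from 65.2 to 26.6 TPM.

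The replication and mitosis genes differed in how they compared with untreated cells. Of 32 genes of the G1/S transition and DNA replication, 30 fell and 0 rose with TGFβ, with a median log2 difference of -1.12 against 0 for all genes tested. CCNE1 and CCND1 did not pass. In untreated cells 16 fell and 3 rose, the median was -0.27, and the change was more negative with TGFβ for 28 of the 32. CDC6 shows this most plainly among the named genes. It was at 47.2, 54.7 and 47.2 TPM at 24 h and 18.3, 21.8 and 16.4 TPM at 48 h with TGFβ. In untreated cells it was already at 26.8 ± 2.48 TPM at 24 h and stayed at 26.8 ± 1.46 TPM at 48 h. GINS2, a subunit of the replicative helicase whose promoter is printed above, fell from 16.8 to 6.33 TPM with TGFβ (-1.46) and from 12.5 to 9.64 TPM without (-0.43). TK1, thymidine kinase, fell by 1.79 with TGFβ and by 1.70 without, and the difference did not pass (adjusted p = 0.829).

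Of 32 genes of mitosis and G2/M, 31 fell with TGFβ and 32 fell without, with medians of -1.14 and -1.62. Here the change was less negative with TGFβ for 17 of the 32, and more negative for 0 of them. The kinetochore gene NDC80 went from 41.8 ± 6.01 to 15.3 ± 1.31 TPM with TGFβ (-1.49) and from 45.3 ± 4.04 to 11 ± 0.748 TPM without (-2.10). UBE2C, which marks mitotic proteins for degradation, fell by 1.41 with TGFβ and by 1.61 without, a difference that did not pass (adjusted p = 0.155). MKI67, the proliferation marker Ki-67, fell by 1.28 and CDK1, the mitotic kinase, by 1.17. Among inhibitors of cyclin-dependent kinases, CDKN1C rose from 6.85 to 14.6 TPM (1.03) and CDKN2C fell from 27.8 to 15 TPM (-0.99).

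Genes of amino acid supply fell as a group with TGFβ. Of 29 targets of the stress factor ATF4 and genes of serine and amino acid supply, 22 fell and 1 rose, with a median of -0.53, against 9 and 5 in untreated cells (median -0.07). The change was more negative with TGFβ for 15 of them, and less negative for 0. The asparagine synthetase gene ASNS was at 78.6, 92 and 84.4 TPM at 24 h and 36.4, 37 and 39.1 TPM at 48 h, so that the groups were far apart. Its log2 difference was -1.34, and that of untreated cells, whose level at 24 h was 30.4 ± 1.25 TPM, was -0.56. MTHFD2, a mitochondrial folate enzyme, fell from 184 ± 23.2 to 76.8 ± 4.2 TPM (-1.31), and SLC7A5, an amino acid transporter, from 131 to 56.6 TPM (-1.28). The untreated change of MTHFD2 was -0.11 and did not pass.

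Chaperone genes of the endoplasmic reticulum tended to change in opposite directions in the arms. Of 27 genes, 11 fell and 1 rose with TGFβ, whereas 1 fell and 8 rose without, and for 9 of them the change was more negative with TGFβ. HSPA5, the main chaperone of this compartment, fell from 379 ± 35.5 to 295 ± 5.91 TPM with TGFβ (-0.42) and rose from 202 ± 8.86 to 296 ± 2.78 TPM without (0.50). Cholesterol synthesis genes fell in both arms, 15 of 25 with TGFβ (median -0.32) and 21 of 25 without (median -0.64), with 0 rising in either. HMGCS1, an early enzyme of the route, fell by 0.55 with TGFβ and by 1.06 without, but its 24 h libraries ranged from 200.3 to 281 TPM. With the library size set by 4 qRT-PCR reference genes, which moves the median of all genes by 0.395, these counts turn to 12 rising and 0 falling chaperones and to 7 rising and 2 falling cholesterol genes, and HSPA5 no longer passed. With that scaling 27 replication and 31 mitosis genes fell, and 11 of the ATF4 group fell and 5 rose.

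**Figure D3:**
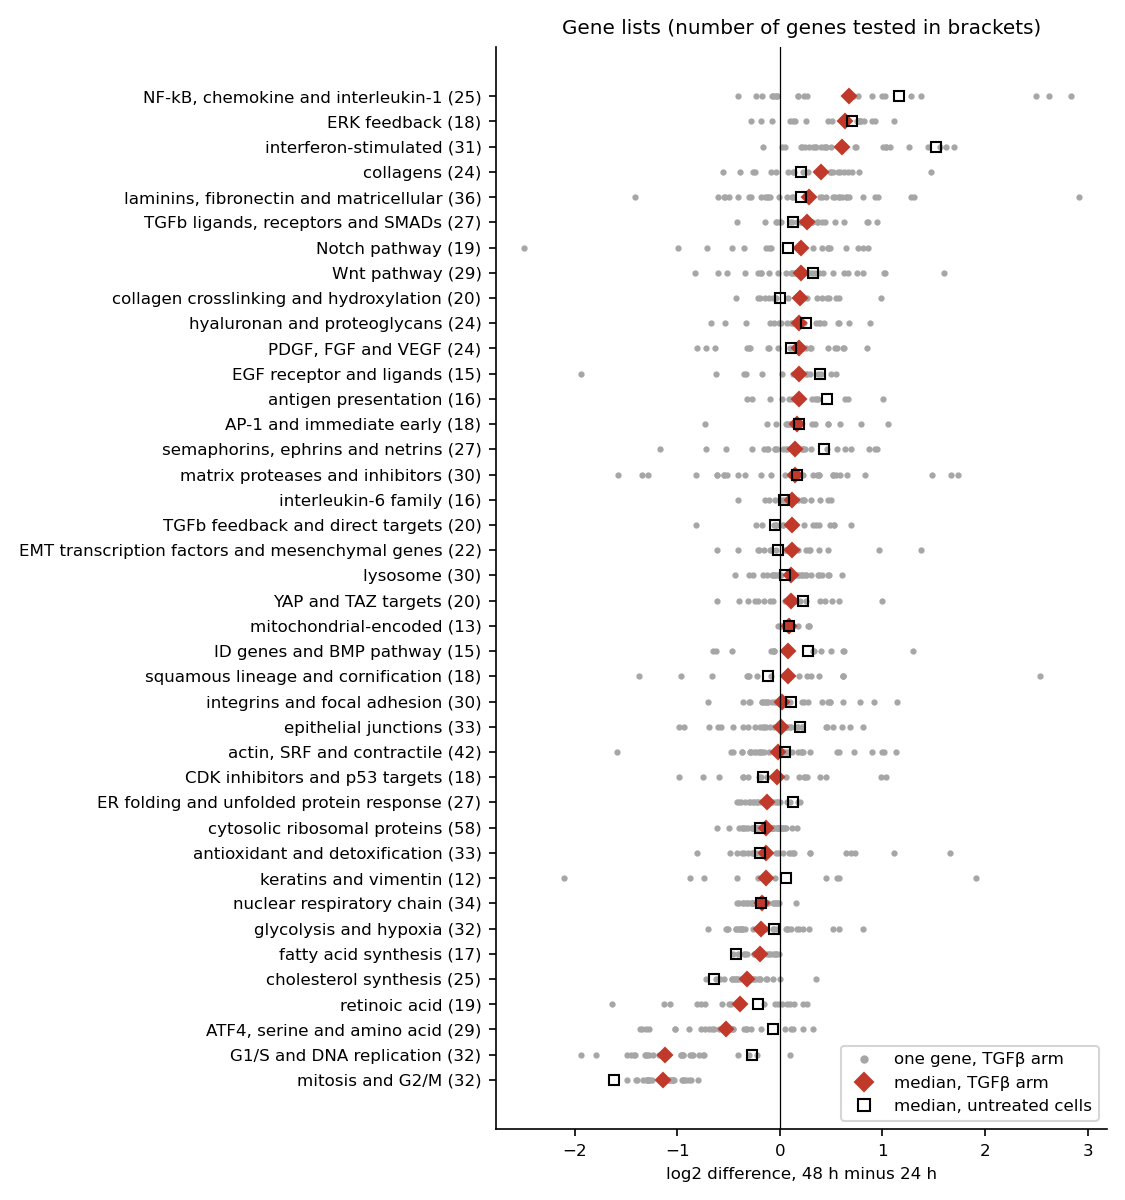
Log2 difference from 24 h to 48 h of the members of 40 gene lists, one grey point per gene in the TGFβ arm, with the median of the TGFβ arm (red diamond) and of untreated cells (open square). Medians of the replication and mitosis lists lie near -1.1 with TGFβ, and the interferon and NF-kB lists lie above 0 in both arms but further in untreated cells.

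Interferon and NF-kB genes rose on the second day in both arms. Of 31 interferon-stimulated genes, 22 rose and 0 fell with TGFβ (median 0.61), and all 31 rose without (median 1.52). The change was lower with TGFβ than without for 23 of them. MX1, an antiviral GTPase, was at 47.2, 44.7 and 44 TPM at 24 h and at 97.5, 94.7 and 94 TPM at 48 h with TGFβ, a log2 difference of 1.62. Untreated cells went from 53.3 ± 5.02 to 293 ± 25.6 TPM (3.05). OAS2, IFI44L and IRF7 rose by 1.56, 1.45 and 1.70, and IFI44, whose promoter is printed above, by 0.50. Of 25 NF-kB, chemokine and interleukin-1 genes, 12 rose and 1 fell (median 0.67), against 21 and 0 without TGFβ (median 1.16). The neutrophil attractant CXCL8 went from 1.51, 2.14 and 1.39 TPM to 13.8, 11.5 and 11.6 TPM, a log2 difference of 2.84 against 4.25 in untreated cells. CXCL1 followed with 2.50 against 4.23. ICAM1, an adhesion molecule, rose by 1.28 with TGFβ and by 1.53 without, and NFKBIA, the inhibitor of NF-kB, by 1.02 and 1.16, and neither difference passed (adjusted p = 0.117 and 0.345). The NF-kB-regulated superoxide dismutase gene SOD2 rose from 120 to 334 TPM with TGFβ and from 253 to 1537 TPM without.

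Matrix genes rose more often than they fell on the second day in both arms. Of 24 collagens 11 rose and 2 fell (median 0.40), against 10 and 3 without TGFβ (median 0.21), and the change was more positive with TGFβ for 2 and more negative for 3. Of 36 laminins, fibronectin and matricellular genes 17 rose and 6 fell (median 0.28), against 14 and 9 without (median 0.21), with 7 more positive and 5 more negative with TGFβ. COL1A1, a chain of type I collagen, had 1683, 1215 and 1720 TPM at 24 h and 2359, 2347 and 2059 TPM at 48 h, with 24 h replicate 2 the lowest. It rose by 0.50 with TGFβ and fell by 0.77 in untreated cells. Without 24 h replicate 2 the COL1A1 difference was 0.36 and without 48 h replicate 2 it was 0.47, and neither passed. The second chain of that collagen, COL1A2, had at most 0.221 TPM in the 6 libraries. The basement membrane collagen gene COL4A5 and COL12A1 rose by 0.77 and 0.70 with TGFβ and by 0.84 and 0.83 without. Tenascin C, encoded by TNC, rose from 27 ± 1.24 to 54.2 ± 3.36 TPM (0.95), and its untreated change of 0.12 did not pass. SPARC and VCAN, a matricellular protein and a large proteoglycan, rose by 1.31 and 0.67. Among 20 genes that cross-link or hydroxylate collagen 7 rose and 2 fell, against 5 and 4 in untreated cells. The procollagen processing enhancer PCOLCE (0.98) and the collagen chaperone SERPINH1 (0.47) were among those that rose.

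Among 30 matrix proteases and inhibitors 11 rose and 9 fell, or 15 and 4 with the reference gene scaling, and 12 rose and 6 fell in untreated cells. The gelatinase gene MMP2 had 1277, 1411 and 1262 TPM at 24 h and 2285, 2263 and 2313 TPM at 48 h, a log2 difference of 0.83 against 0.37 in untreated cells. MMP7, matrilysin, fell from 40.3 to 17.2 TPM (-1.29) and also fell without TGFβ (-1.07). The summed level of 8 fibroblast markers lay between 1256 and 1760 TPM at 24 h and between 2117 and 2415 TPM at 48 h. Most of it was COL1A1, and 7 of the 8 passed upward (12.4% of all genes tested did), with DCN at no more than 1.82 TPM in any library. In untreated cells 4 of the 8 rose and 3 fell. The change was more positive with TGFβ for 3 of them and more negative for 2. Whether cells other than SK-MES1 contribute was not tested.

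Adhesion and cytoskeletal genes moved in both directions with TMM scaling but not with the reference gene scaling. Of 30 integrin and focal adhesion genes 8 rose and 5 fell, or 23 and 0 with the reference gene scaling. Of 42 actin and contractile genes 8 rose and 10 fell (median -0.02), or 27 and 0 with the reference gene scaling. The TMM shares over all genes tested were 12.4% rising and 13.4% falling. In untreated cells 11 of the 30 rose and 3 fell, and 12 of the 42 rose and 6 fell. The change did not differ between the arms for 23 of the 30 and 30 of the 42. The collagen-binding integrin gene ITGA11 went from 154, 152 and 157 to 347, 362 and 335 TPM (1.14, untreated 0.66). ITGA6, an integrin that binds laminin, fell by 0.70. TPM2, a tropomyosin, rose from 14.7 to 33.8 TPM (1.13), and MYL9, a myosin light chain, rose by 0.90. ANKRD1, a muscle and YAP target gene, rose by 0.99 with TGFβ and by 1.82 without.

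The study had selected 15 genes as candidates for TGFβ-driven invasion. They had been chosen for their induction in these libraries, so that their high level with TGFβ is not a result. On the second day 7 rose, 3 fell and 5 did not pass (12, 2 and 1 with the reference gene scaling). Of all genes tested 12.4% rose and 13.4% fell. In untreated cells 6 of the 15 rose and 5 fell on that day. The change was more positive with TGFβ for 6 and more negative for 4. MYO10, an unconventional myosin of filopodia (chromosome 5, 16661907 to 16936288), held 46.2, 46.4 and 47.7 TPM at 24 h and 48.6, 47.4 and 46.8 TPM at 48 h. The groups overlap, and the log2 difference was -0.02 (standard error 0.03, limma voom adjusted p = 0.762). In untreated cells MYO10 rose from 17.2 to 21.5 TPM (0.26). MARCKS, DYSF and SHROOM4 did not pass either, with log2 differences of 0.06, -0.01 and -0.02. The myosin gene MYO1E, which was not a candidate, did not pass (-0.03). The vimentin gene VIM was at 3808, 3654 and 3708 TPM at 24 h and 3563, 3575 and 3590 TPM at 48 h. The 48 h libraries lay below the 24 h libraries, but VIM did not pass (-0.12, adjusted p = 0.0388), whereas it fell in untreated cells from 1317 to 764 TPM (-0.84).

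Besides HTRA1 and PRSS2, the integrin gene ITGB3 rose from 91 ± 1.74 to 136 ± 5.45 TPM (0.49), the urokinase gene PLAU from 360.4 ± 10.5 to 488 ± 6.48 TPM (0.38) and the coronin gene CORO2B from 10.4 to 17.3 TPM (0.67). TPM1 and ABLIM1, both actin-binding, rose by 0.21 and 0.20, and ABLIM1 did not pass when any of 5 of the 6 libraries was left out (0.15 to 0.21). TGFBI, an abundant adhesion protein of the matrix, had 1694, 2040 and 1817 TPM at 24 h and 1254, 1287 and 1298 TPM at 48 h. It fell by 0.55 on the log2 scale, and by 0.61 in untreated cells. The fibronectin receptor subunit ITGA5 fell by 0.36 and the non-muscle myosin MYH9 by 0.37. The EMT transcription factor genes SNAI1 and ZEB1 did not pass, at log2 differences of 0.25 (adjusted p = 0.0106) and 0.28 (adjusted p = 0.0188). Without 24 h replicate 2 ZEB1 passed (0.35), and SNAI1 passed without any 1 of 3 TGFβ libraries, namely 24 h replicates 1 and 3 and 48 h replicate 3 (0.29 to 0.31), and without untreated 24 h replicate 2 (0.25). Both outcomes also depended on the method. SNAI1 passed with 7 alternative settings, among them library totals (0.28) and log2(TPM + 1) (0.29), and ZEB1 with 7, among them DESeq2 (0.28) and length-scaled counts (0.35). SNAI1 was at 8.28, 6.89 and 8.41 TPM at 24 h and 9.94, 10.3 and 9.22 TPM at 48 h with TGFβ, and fell in untreated cells from 3.46 to 1.35 TPM (-1.42).

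**Figure D4:**
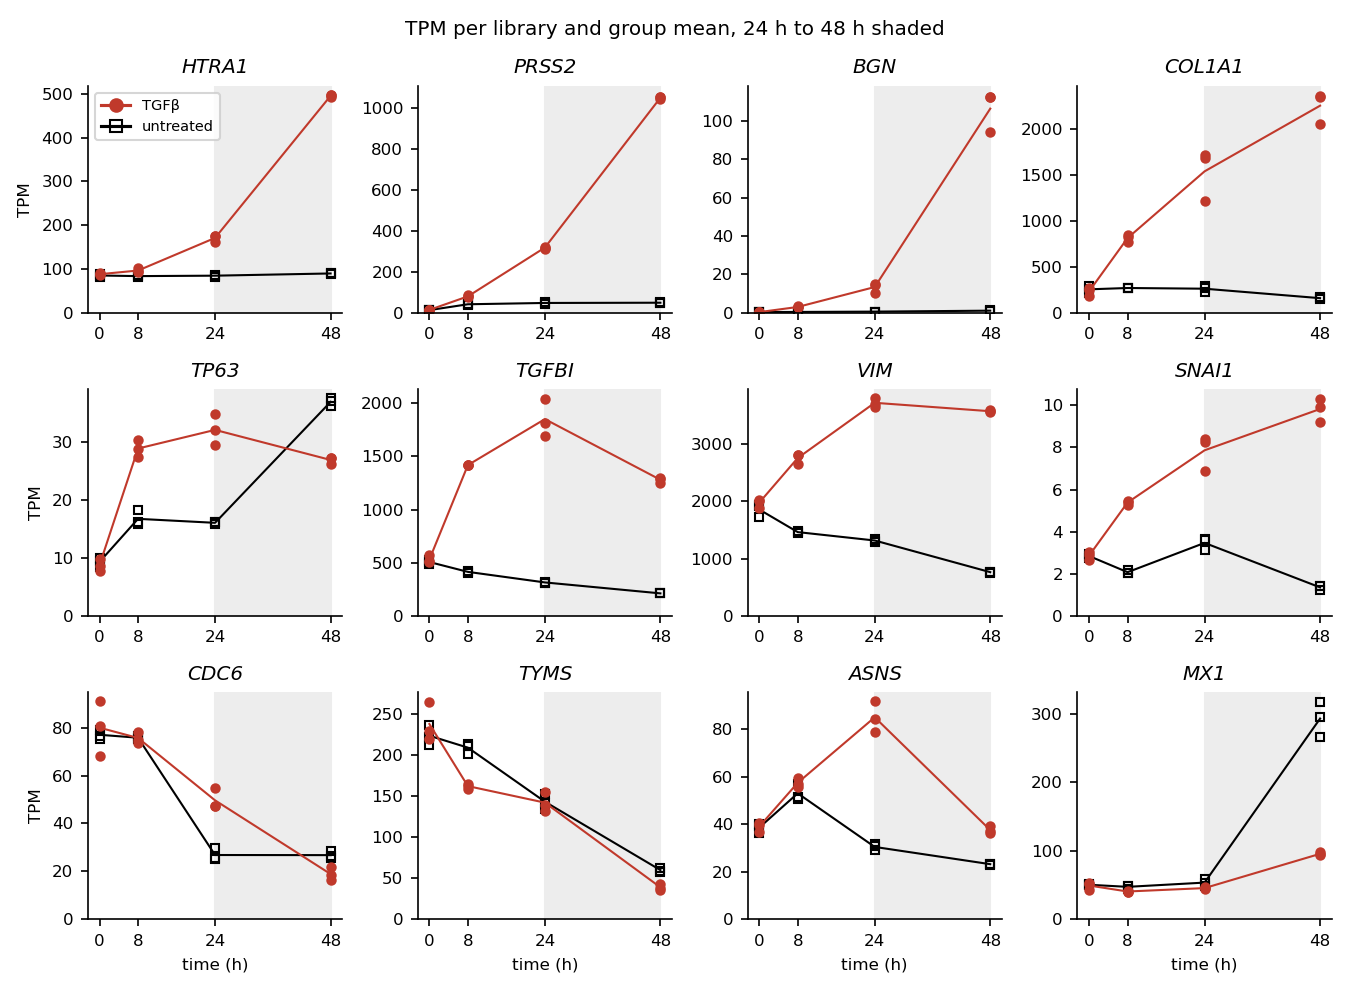
TPM of 12 genes in every library of both arms against time in hours, with group means joined by lines and the second day shaded (red, TGFβ; black, untreated). HTRA1, PRSS2 and BGN gained most of their TPM after 24 h, TGFBI and ASNS were lower at 48 h than at 24 h, and CDC6 was above its untreated level at 24 h and below it at 48 h.

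Keratin genes split, and most squamous lineage genes did not pass. Of 12 keratin and vimentin genes 4 rose and 5 fell (6 and 3 with the reference gene scaling). Of 18 squamous lineage genes 3 rose, 3 fell and 12 did not pass (7 rose and 1 fell with the reference gene scaling). Among all genes tested 12.4% rose and 13.4% fell. KRT15, a basal keratin, fell from 7.85 to 1.85 TPM (-2.10), against -1.99 in untreated cells, and the difference did not pass (adjusted p = 0.814). KRT7, a keratin of simple epithelium, had 1572, 1349 and 1542 TPM at 24 h and 878, 857 and 890 TPM at 48 h (-0.88), and did not pass in untreated cells (-0.20). TP63, the squamous lineage transcription factor, moved in opposite directions in the arms. Its fall with TGFβ did not pass in the fit of the 6 libraries alone (-0.31), on log2(TPM + 1) (-0.24) or on log2(TPM + 0.1) (-0.25). With TGFβ it was at 29.4, 34.7 and 32 TPM at 24 h and 26.1, 27.2 and 27.2 TPM at 48 h (-0.32, or 0.07 with the reference gene scaling), and without TGFβ it rose from 16 ± 0.256 to 36.8 ± 0.737 TPM (1.18). ALDH1A3, a retinoic acid synthesizing enzyme, fell by 0.49 with TGFβ and rose by 0.48 without, and AREG, a ligand of the EGF receptor, fell by 0.62 and rose by 0.40. NOTCH3, a Notch receptor, went the other way, rising by 0.85 with TGFβ and falling by 0.83 without.

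Of 27 genes for TGFβ and activin ligands, receptors and SMADs 12 rose and 1 fell (median 0.26), or 24 and 0 with the reference gene scaling. In untreated cells 9 rose and 1 fell (median 0.13), and the change was more positive with TGFβ for 1 gene and more negative for 4. The one that fell was SMAD3, the main transcriptional mediator, with 111, 99.4 and 110 TPM at 24 h and 83.6, 80.1 and 83.2 TPM at 48 h (-0.42), which did not pass with the reference gene scaling (-0.03). TGFB3 rose by 0.41, TGFB2 by 0.36 with overlapping TPM, and SMAD1, which serves bone morphogenetic proteins, by 0.31. Neither TGFB3 nor TGFB2 passed with length-scaled counts (0.24 and 0.25) or on log2(TPM + 1) (0.27 and 0.28). Of 20 feedback inhibitors and direct targets 7 rose and 1 fell, against 5 and 2 in untreated cells, with the repressors TGIF2 and SKI at 0.69 and 0.53. NOG, which encodes the bone morphogenetic protein antagonist noggin, rose from 11.4 to 29.4 TPM (1.30), while the BMP target ID3 fell by 0.62 in the TGFβ arm and by 0.63 without. Without 24 h replicate 3 or 48 h replicate 1, ID3 did not pass (-0.53 and -0.57), and without 24 h replicate 3 neither did TGFB2 (0.28). Of 18 feedback genes of ERK signaling 10 rose and 1 fell (median 0.63), among them SPRY1 (0.93) and DUSP6 (0.90), and in untreated cells 14 rose and 0 fell. FGF1 rose from 4.55 to 8.93 TPM (0.85) with TGFβ, and its untreated change of 0.03 did not pass.

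Genes that respond early to TGFβ were defined by the change from 0 h to 8 h relative to untreated cells. The means of these 12 libraries do not enter the second-day difference. All 24 libraries share 1 estimate of the spread, however, so the early and second-day calls are not independent. This early effect passed for 1376 genes (7.88%), and with a 2-fold limit for 257 induced (1.47%) and 75 repressed genes (0.43%). Of the 257 early-induced genes, 83 rose further on the second day (32.3%, against 12.4% of all genes), 50 fell (19.5%, against 13.4%) and 124 did not pass. Their median was 0.07. In untreated cells 62 of the 257 rose on that day (24.1%, against 14.7% of all genes) and 53 fell (20.6%, against 13.6%), with a median of -0.01. Of the 75 early-repressed genes 8 rose (10.7%, against 12.4% of all genes), 18 fell further (24%, against 13.4%) and 49 did not pass. Their median was -0.13. In untreated cells 21 of the 75 rose (28%, against 14.7%) and 23 fell (30.7%, against 13.6%).

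Among protein-coding genes of at least 5 TPM, the early-induced genes that rose most were BGN, KRT17, AMTN and DRAXIN, described above, and the fibroblast protease gene FAP, which went from 2.22 to 5.86 TPM (1.38) and had at most 0.56 TPM in any untreated library of these times. Those that fell most included the chorionic gonadotropin genes CGB8 and CGB5, from 749 to 288 and from 394 to 147 TPM (-1.44 each). These genes are near-identical copies, and their split is uncertain. ODAPH, an enamel protein, fell from 10.5 to 5.63 TPM (-1.04). Among early-repressed genes the stress cytokine gene GDF15 rose from 43.8 to 89.3 TPM (0.98), less than in untreated cells (2.16), and the transcriptional coregulator gene CITED2 rose by 0.32 and fell without TGFβ by 0.25. Without 24 h replicate 2 or 48 h replicate 1, CITED2 did not pass (0.21 and 0.29). EVI2B and ID3 fell further, by 0.73 and 0.62.

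**Figure D5:**
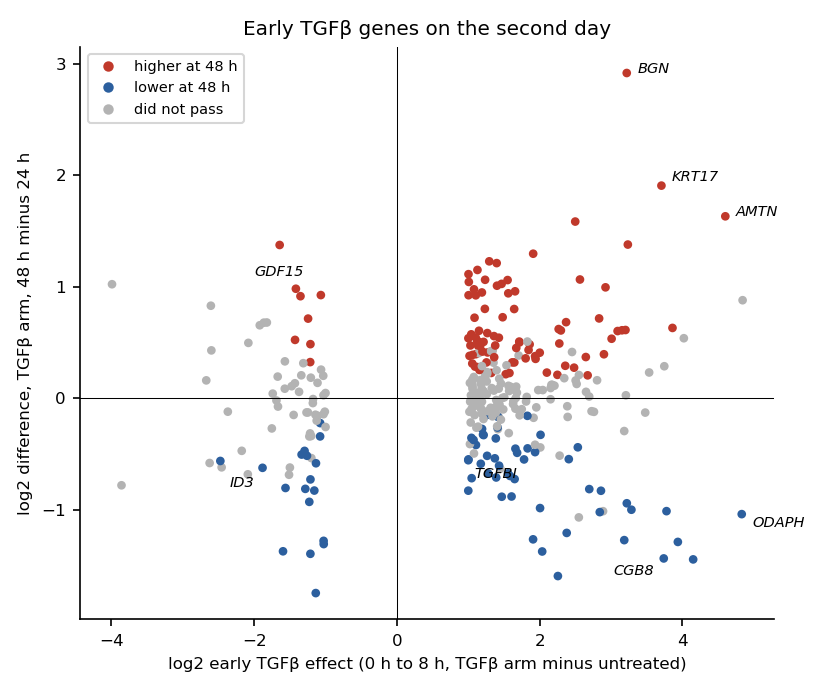
Early TGFβ effect from 0 h to 8 h relative to untreated cells (horizontal, log2) against the log2 difference from 24 h to 48 h in the TGFβ arm (vertical) for the 257 early-induced and 75 early-repressed genes. Of the induced genes 83 are higher (red), 50 lower (blue) and 124 did not pass (grey), and BGN, AMTN and KRT17 are among those that kept rising.

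Housekeeping groups had small medians, though some held more falling genes than the 13.4% of all genes tested. Of 58 cytosolic ribosomal protein genes 19 fell and 0 rose (median -0.14), of 34 nuclear genes of the respiratory chain 14 fell and 1 rose (median -0.17), and of 13 mitochondrially encoded genes 4 rose and 0 fell (median 0.09). The first and second of these directions turn with the reference gene scaling. The glycolytic enzyme gene GAPDH, used as a reference in qRT-PCR of the study, fell from 4576 to 3324 TPM (-0.53), and the purine salvage gene HPRT1, another reference, from 87.8 to 51.3 TPM (-0.79). Lysosomal genes rose in 9 and fell in 2 of 30 cases, against 5 and 4 in untreated cells, with TPP1, a protease gene, at 0.61 and PSAP, a sphingolipid activator gene, at 0.47.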

How the data were processed

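RNA was sequenced from SK-MES1 cells stimulated with TGFβ1 or left untreated for 0, 8, 24 and 48 h, with 3 libraries per group. The authors quantified transcripts with kallisto 0.43.0 and deposited, for every transcript, an estimated count, a TPM value (abundance corrected for length and depth) and an effective length. The study calls the replicates biological.

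Estimated counts and TPM were summed to genes by Ensembl transcript ID with GENCODE 44 (GRCh38). Of 173259 transcripts, 155518 (89.8%) matched, holding 94.9% to 95.05% of the counts of the 6 libraries. The deposited effective lengths, in bases, entered only an alternative with length-scaled counts. Gene counts were rounded, and the 17453 genes with at least 10 counts in at least 3 libraries were tested with limma 3.58.1 (voom, TMM factors of edgeR 4.0.16, R 4.3.3). All 24 libraries in 8 groups entered 1 fit. Differences passed at a Benjamini-Hochberg adjusted p below 0.01 over all genes tested. Summaries used pandas 2.3.3 under Python 3.11.15, and plots were drawn with matplotlib 3.10.9. The scripts were tested on simulated counts with 200 changed genes.

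Genes were named by a rule: the 12 rising and 12 falling protein-coding genes with the lowest adjusted p, at least 2-fold change, at least 5 TPM in 1 group and no overlap of TPM; the candidates, myosins and EMT markers of the study; up to 4 members per list with the largest change past the threshold; and 5 early genes in each direction. MKI67, CDK1 and IFI44, named for their promoters, fall outside that rule and were chosen after their values were seen. One gene under the rule is not reported here. The members and lists were chosen with earlier results of these data known. Alternatives were DESeq2 1.42.0, edgeR, other scalings, filters and units, a replicate block and leaving out single libraries. Depth limits precision mainly for genes near 10 counts.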

Additional observations from a re-analysis of the deposited data

Results flagged for a closer look

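The change from 24 h to 48 h differed between TGFβ-treated and untreated cells for 1590 genes, by the test of the difference of the differences, and for 62 genes valued above. The values that follow are the change with TGFβ less the change without, on the log2 scale. A positive value was found for the matrix, protease and cell surface genes HTRA1 (1.46), PRSS2 (1.70), BGN (2.01), AMTN (2.61), CLSTN2 (0.97), DRAXIN (0.79), GPNMB (0.65), MMP11 (0.91), MMP2 (0.46), COL1A1 (1.27), TNC (0.83), SERPINH1 (0.56) and FAP (3.54). It was also found for ITGA11 (0.49), TPM2 (0.49), CORO2B (1.03), MARCKS (0.37), SHROOM4 (0.52), VIM (0.72), SNAI1 (1.67), NOTCH3 (1.68), FGF1 (0.82), SPRY1 (0.46), CITED2 (0.58) and TPP1 (0.28), and for the cell cycle genes CDCA8 (0.54), KIF2C (0.52), NDC80 (0.61) and CDKN2C (0.43). Among replication and repair genes the value was negative for TYMS (-0.58), RRM2 (-0.61), CDC6 (-1.43), ORC1 (-0.82), GINS2 (-1.03), RAD54L (-0.49) and TIMELESS (-0.23). It was negative for the amino acid and chaperone genes ASNS (-0.78), MTHFD2 (-1.19), PSAT1 (-0.79), SLC7A5 (-0.62) and HSPA5 (-0.92) and for the interferon, NF-kB and stress genes MX1 (-1.43), OAS1 (-0.87), OAS2 (-1.25), IFI44L (-0.61), CXCL1 (-1.73), CXCL8 (-1.41), SOD2 (-1.24) and GDF15 (-1.18). The other negative values were those of TP63 (-1.51), KRT7 (-0.69), KRT17 (-1.70), ALDH1A3 (-0.98), AREG (-1.02), ANKRD1 (-0.82), ITGA5 (-0.47), PLAU (-0.65), MYO10 (-0.28), MYO1E (-0.54), SMAD3 (-0.32), TGFB2 (-0.59) and EVI2B (-0.55). The untreated levels of FAP, BGN, AMTN and KRT17 were low, so that their untreated changes rest on few counts. With 3 libraries in every group, no gene was examined for an outlying single value. The 24 h library that stands apart as a whole, replicate 2, is described above.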

How the results depend on the processing

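Counts of changed genes kept within 1.5 times of the values given for most alternatives. The reference gene scaling gave 9762 genes (94.9% higher, against 47.9% in the main analysis), 1197 of them at least 2-fold, and 10049 in untreated cells. It moves the median of all genes by 0.395, and 1132 of the 4504 genes changed sign. With it the sign turned, though to values below the shift itself, for MYO10 (0.38), DYSF (0.387), SHROOM4 (0.377), MYO1E (0.361), VIM (0.272), TP63 (0.073), ITGA5 (0.036) and MYH9 (0.026). Of these MYO10, DYSF, SHROOM4, MYO1E and VIM passed as higher with that scaling. The falls of ALDH1A3, AREG, EVI2B, GAPDH, HMGCS1, HSPA5, ID3, ITGA6 and SMAD3 no longer passed (-0.02 to -0.33), while MARCKS (0.46), SNAI1 (0.65) and ZEB1 (0.68) passed. Fitting only the libraries of the contrast gave 2451 genes, with fewer samples behind the spread. In that fit ABLIM1 (0.22), CDKN1C (1.05), CITED2 (0.34), COL1A1 (0.515), TGFB2 (0.37), TP63 (-0.31) and TPM1 (0.22) did not pass. Sample quality weights gave 7690 genes, 7774 in untreated cells, 4240 between the arms and 2746 for the early effect, and the cause was not tested. On log2(TPM + 1) 251 genes changed at least 2-fold, and on log2(TPM + 0.1) 1000 differed between the arms. The share of higher calls was 60.7% and 58.7% on these scales. An adjusted p below 0.05 gave 2706 genes between the arms and 2128 for the early effect.

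Near 0, the sign of genes that did not pass turned. MYO10 was at 0.015 with library totals, 0.017 with upper-quartile factors, 0.026 on log2(TPM + 0.1) and 0.025 on log2(TPM + 1). In the same order SHROOM4 was at 0.011, 0.013, 0.088 and 0.07, and at 0.032 with length-scaled counts and 0.013 with quality weights. DYSF was at 0.022, 0.023, 0.07 and 0.068, at 0.006 with a filter of 1 CPM, at 0.008 with length-scaled counts, at 0.004 with only the contrast's libraries, and between -0.063 and 0.029 without single libraries.

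Leaving out single libraries gave 3494 to 4577 genes, 519 to 598 at least 2-fold, 3986 to 5327 in untreated cells, 1152 to 1498 between the arms and 1302 to 1511 for the early effect. With the replicate number as a block, 5103 genes changed, 602 at least 2-fold, 5534 in untreated cells, 1946 between the arms and 1598 early, and no gene valued in the text changed its call. Deviations of same-numbered libraries correlated at 0.023, -0.049 and -0.065 between 24 h and 48 h of the TGFβ arm. The numbers therefore did not pair the samples of these groups. Whether they pair samples between the arms, or at 0 h and 8 h, was not tested.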
